A study of Mus musculus and Homo sapiens with 40 samples.

Results

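Core CEBPA sites at promoters were defined as peaks of the p42 anti-CEBPA list that overlapped by at least 1 bp a peak in each of 3 other lists, namely anti-CEBPA in p30 cells, anti-ER in p42 cells and anti-ER in p30 cells. In addition, the summit, the position of highest signal within a peak, had to lie within 1000 bp of the start of a protein-coding transcript. Of 47517 p42 anti-CEBPA sites, 13375 were core sites and 1213 of these were core promoter sites. The members were therefore chosen by CEBPA peak calls and distance to a start, and these values are given below as descriptions. H3K27ac, H3K4me1 and sequence were not used to choose them.

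The ChIP-seq lists came from HPC-7, a mouse hematopoietic progenitor line, stably transduced with either full-length CEBPA p42 or the shorter isoform p30. Both isoforms were fused to ERT2, a fragment of the estrogen receptor, so that the fusion is recognised by an antibody against CEBPA and by one against ER. According to the methods of the study, expression was from a retroviral vector with a GFP marker, GFP-positive cells were sorted, endogenous CEBPA was very low, and such fusions were activated with 4-hydroxytamoxifen, which the sample labels do not name. The anti-CEBPA and anti-ER lists came from 1 untreated sample each. H3K27ac was measured in p42 and p30 cells, untreated or given LPS at 100 ng/mL for 2 h, and each of these 4 lists pooled 3 samples. H3K4me1 lists pooled 2 untreated samples per line. Isoform and cell line were the same variable throughout and cannot be told apart.

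CEBPA is a basic leucine zipper transcription factor that drives myeloid differentiation. It binds DNA as a dimer, and both ends of its palindromic target are read by its paired basic regions. The p30 isoform lacks amino-terminal transactivation domains that p42 carries but keeps the DNA-binding domain. C/EBP proteins can also pair with ATF4, the effector of the integrated stress response, on a composite sequence at genes for amino acid metabolism. H3K27ac marks active promoters and enhancers, and H3K4me1 is typical of enhancers and of the flanks of promoters. At active promoters the start itself is often depleted of nucleosomes, so that histone marks lie on both sides of it.

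The chromatin of the line carried the labelled identity. All 10 progenitor marker genes examined, among them Kit, Gata2 and Tal1, had a start in a peak of all 4 H3K27ac lists, against 0 of 8 lymphoid, 0 of 5 erythroid and 0 of 5 liver markers. In single lists up to 2 lymphoid markers (p30, LPS) and 1 erythroid marker had a start in a peak. H3K27ac peaks numbered 129369 (p42, untreated), 107141 (p42, LPS), 139210 (p30, untreated) and 142419 (p30, LPS). The CEBPA lists held between 23248 and 47517 peaks. Read depth is unknown from peak lists, and list lengths move with it. With pooled or single lists there was no replicate error, so no test was made between lists. Intervals of shares are Wilson 95% intervals over sites, and all intervals cover counting error only.

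Sequences are printed for some of the strongest core promoter sites, chosen for holding a CEBP sequence, which most members lacked. The following 5 were among those with the best mean percentile over the 4 CEBPA lists, of sites outside untranslated regions and with a CEBP sequence in the 80 bp around the summit. CEBP here means TTGCGCAA, TTGCACAA, TTGCATAA or TTACGCAA on either strand. Capitals mark the CEBP sequence on the plus strand of GRCm39, and each is printed 5′ to 3′.
Pnp, chr14:51181584-51181663: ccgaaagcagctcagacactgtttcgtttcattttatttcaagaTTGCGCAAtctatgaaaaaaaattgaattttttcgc
Fbp2, chr13:63007141-63007220: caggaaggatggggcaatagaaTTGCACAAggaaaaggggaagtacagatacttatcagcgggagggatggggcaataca
Rab11b, chr17:33968561-33968640: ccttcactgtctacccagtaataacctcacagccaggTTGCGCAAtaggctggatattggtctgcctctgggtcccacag
Upf2, chr2:6027352-6027431: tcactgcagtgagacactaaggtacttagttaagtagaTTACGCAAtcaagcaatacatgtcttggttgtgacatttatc
Hnrnph1, chr11:50269371-50269450: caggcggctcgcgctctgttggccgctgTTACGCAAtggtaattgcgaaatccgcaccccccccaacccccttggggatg
TTGCGCAA, the full palindrome, stood under 2 of these 5 summits. The site of Pnp, a purine salvage enzyme, had fold enrichments, anti-CEBPA first and anti-ER second, of 63.7 and 82.1 in p42 cells and of 58.8 and 101 in p30 cells. Pairs of values below follow the same order. Its summit was 135 bp upstream of a start, in an intron of a longer transcript. The site of Hnrnph1, a splicing factor, lay in an intron 787 bp downstream of the start, and its enrichment was 49.2 and 47.7 in p42 cells and 53.1 and 64.1 in p30 cells. That of Rab11b, a small GTPase of recycling endosomes, lay in an intron 218 bp downstream of the start.

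For contrast, 3 strong sites had none of the C/EBP sequences searched within the 200 bp around the summit, including the looser form TTGCNNAA and the composite TGATGCAA. They are shown in lower case throughout.
Ppm1f, chr16:16714233-16714312: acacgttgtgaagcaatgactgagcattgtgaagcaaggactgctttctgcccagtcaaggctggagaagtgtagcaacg
Il6ra, chr3:89820586-89820665: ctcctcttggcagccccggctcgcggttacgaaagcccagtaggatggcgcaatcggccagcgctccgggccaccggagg
Ip6k3, chr17:27389414-27389493: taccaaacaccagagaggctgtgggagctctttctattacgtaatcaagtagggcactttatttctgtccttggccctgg
The site of Il6ra, the interleukin-6 receptor, lay 123 bp upstream of the nearest start, with enrichments of 22.6 and 36.8 in p42 cells and 34.6 and 73.8 in p30 cells. A missing match says only that these letters were not in the window.

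A further 3 sites carried the composite C/EBP-ATF sequence, TGATGCAA, which reads TTGCATCA on the other strand. They are examples from genes of the stress response and of cytosolic aminoacyl-tRNA synthetases, with the sequence in the 80 bp window and outside untranslated regions, and capitals mark it. Better-ranked sites with the composite, such as that of Herpud1, are described below by their values.
Ddit3, chr10:127126316-127126395: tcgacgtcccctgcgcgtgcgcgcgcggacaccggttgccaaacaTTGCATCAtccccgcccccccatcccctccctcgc
Sars1, chr3:108351485-108351564: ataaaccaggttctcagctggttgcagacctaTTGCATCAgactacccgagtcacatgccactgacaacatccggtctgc
Farsb, chr1:78465156-78465235: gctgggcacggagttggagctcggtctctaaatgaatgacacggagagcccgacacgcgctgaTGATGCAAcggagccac
Ddit3 encodes the stress factor CHOP, and Sars1 and Farsb charge tRNAs with serine and phenylalanine. Enrichment at the Ddit3 summit, 54 bp upstream of the start, was 24.6 and 18 in p42 cells and 27.1 and 36.0 in p30 cells. At Farsb, 283 bp downstream of the start, the 4 values were lower, between 6.22 and 10.6.

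Core promoter sites lay close to the start and more often upstream of it. The median distance to the nearest start was 251 bp, with quartiles of 72 and 602 bp, against a median of 429.5 bp at the 1152 other p42 anti-CEBPA sites within the same limit. The summit was upstream of the nearest start at 705 sites (58.1%), within 100 bp of it at 396 (32.6%) and within 250 bp at 606 (50%). The densest stretch was the last 100 bp upstream, with 129 summits between 100 and 51 bp and 124 within 50 bp of the start. The first 50 bp downstream held 103 and the next stretch to 100 bp only 40. By annotation, 506 summits (41.7%) lay in an intron, 347 (28.6%) in an exon and 360 (29.7%) outside protein-coding genes. Starts on both strands were within reach of 101 sites. The members nearest the limit were at Igsf8 (995 bp), Tnfaip8 (999 bp) and Naa25 (1000 bp), and the core sites just outside it were near Prr5l (1004 bp), Rcsd1 (1006 bp) and Dse (1007 bp).

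**Figure D1:**
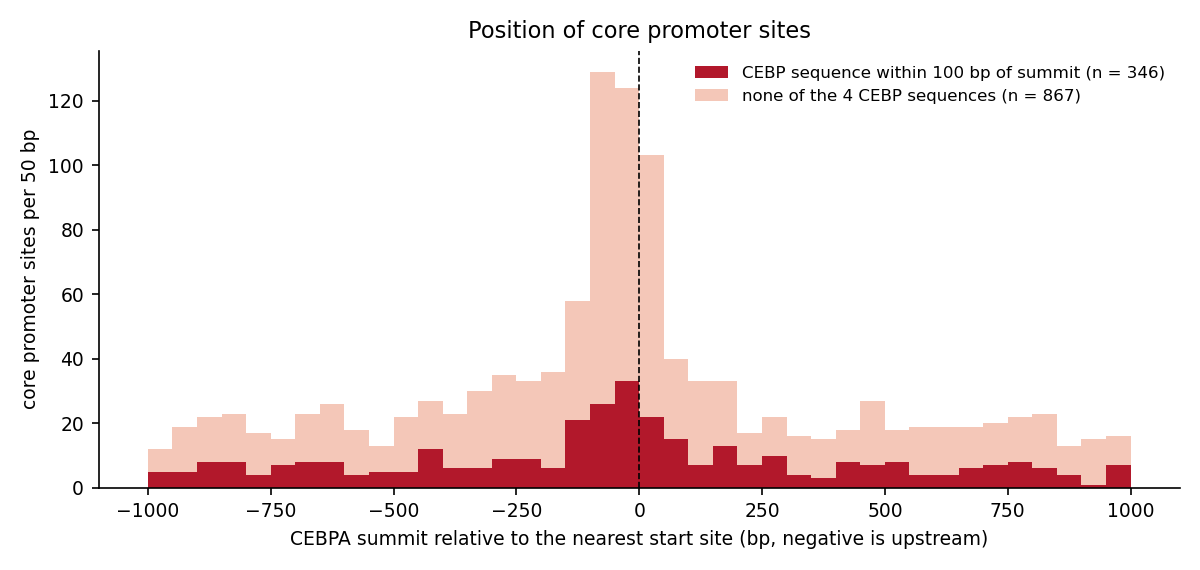
Number of core promoter sites (vertical axis) by position of the CEBPA summit relative to the nearest protein-coding start in bins of 50 bp (horizontal axis, negative is upstream), split by the presence of a CEBP sequence. Sites pile up in the 100 bp upstream of the start and thin out just downstream, and the 346 sites with a CEBP sequence lie along the whole range.

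Binding at core promoter sites was moderate in strength and differed in rank between the lists. The median fold enrichment over local background was 10.6 with anti-CEBPA in p42 cells, 10.5 with anti-CEBPA in p30 cells, 9.36 with anti-ER in p42 cells and 13.3 with anti-ER in p30 cells. Medians over each whole list were 7.68, 7.59, 7.20 and 6.93. Within each list peaks were ranked by q-value and the rank expressed as a percentile, where small is strong. The median percentile of the members was 28.5, 27.4, 33.0 and 17.9 in the same order. The 12162 core sites away from promoters had medians of 15.9, 22.9, 33.9 and 22.3. Core promoter sites thus ranked behind the distal core sites with anti-CEBPA in either line and ahead of them with anti-ER in p30 cells. The summits of the 3 other lists lay at a median of 15, 13 and 11 bp from the p42 anti-CEBPA summit. These values come from the lists that chose the sites and carry no test, and the calling settings may have differed between the antibodies.

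Single sites showed the spread between antibodies. At Mafg, a small MAF factor that partners AP-1 and NRF2 proteins, enrichment 1 bp from the start was 13.5 and 63.3 in p42 cells, and 25.1 and 107 in p30 cells. Both anti-ER values exceeded both anti-CEBPA values there. At Upf2, a factor of nonsense-mediated mRNA decay, the difference was by line, with 36.5 and 47.5 in p42 cells against 75.9 and 74.0 in p30 cells. Tomm6, a subunit of the mitochondrial import channel, had similar values in all 4 lists, from 52.5 to 67.5.

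More than 1 in 4 core promoter sites held a CEBP sequence, far more than gene starts in general. It was found in 346 of 1213 windows of 200 bp (28.5%, interval 26.1 to 31.1). The same search found it at 20.6% of other promoter sites (18.3 to 23.0), 40.3% of core sites away from promoters (39.4 to 41.1) and 1.36% of the starts of all 21757 protein-coding genes. A control with the letters of TTGCGCAA reordered, AAGCGCTT, was in 0.412% of member windows. As a single sequence it compares with TTGCGCAA alone, in 7.5% of them, rather than with the 4 forms together. Where a CEBP sequence was present, the nearest one lay at a median of 9 bp from the summit and within 25 bp at 292 sites (84.4%). With the members split into 4 equal groups by mean CEBPA percentile, it was in 49.8% of the strongest group and 16.8% of the weakest. The looser TTGCNNAA, which covers all 4 CEBP forms, was in 53.5% of windows.

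The form of the sequence differed between promoters and distal sites. TTGCGCAA, which contains a CpG, was in 7.5% of core promoter windows, 1.65% of other promoter windows, 5.59% of core sites away from promoters and 0.138% of gene starts. TTGCACAA was the most frequent form at the members, at 13.9%, but lay below its 21.6% at distal core sites. TTACGCAA was in 4.53% of core promoter sites, 1.65% of other promoter sites and 9.41% of distal core sites. TTGCATAA was in 2.89%, 6.08% and 4.38%. Base composition differed between the sets as well. The median GC content was 50.5% at the members, 44.5% at other promoter sites, 43% at distal core sites and 56% at gene starts. In windows of 50 to 60% GC, 23.1% of members (19.2 to 27.5) and 16.5% of other promoter sites (12.4 to 21.6) had a CEBP sequence, with overlapping intervals. In windows under 50% GC the shares were 32.2% (28.5 to 36.2) and 22.5% (19.8 to 25.5). Within windows of at least 60% GC, 28.8% of members (23.5 to 34.7) had a CEBP sequence against 14.1% of other promoter sites (8.26 to 23.1), and in these last 2 classes the intervals do not overlap.

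Sequences read by general promoter factors were present in amounts between those of distal sites and gene starts, as 4 of them show. The GC box GGGCGG, read by SP and KLF factors, was in 20% of core promoter windows, 2.53% of distal core windows and 35.2% of gene starts. CCGGAAG, an ETS site of promoters, was in 5.61%, 0.822% and 8.51%. The CRE TGACGTCA was in 0.989%, 0.238% and 1.94%, and the NRF1 site GCATGCGC in 1.24%, 0.222% and 2.7%. GC box and ETS site thinned out with distance, from 36.6% and 12.8% of members within 50 bp of a start to 5.93% and 0.27% of those over 500 bp away. CEBP showed the opposite order, from 24.2% to 31.5%. The NF-Y box CCAAT, a short sequence that is common by chance, was in 26.3% of member windows, 26.1% of distal core windows and 29.8% of gene starts. GAGGAAG, read by PU.1, was in 11.7% of member windows, 10.2% of distal core windows and 9.8% of gene starts, and the AP-1 site TGANTCA in 7.01%, 8.28% and 4.51%.

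**Figure D2:**
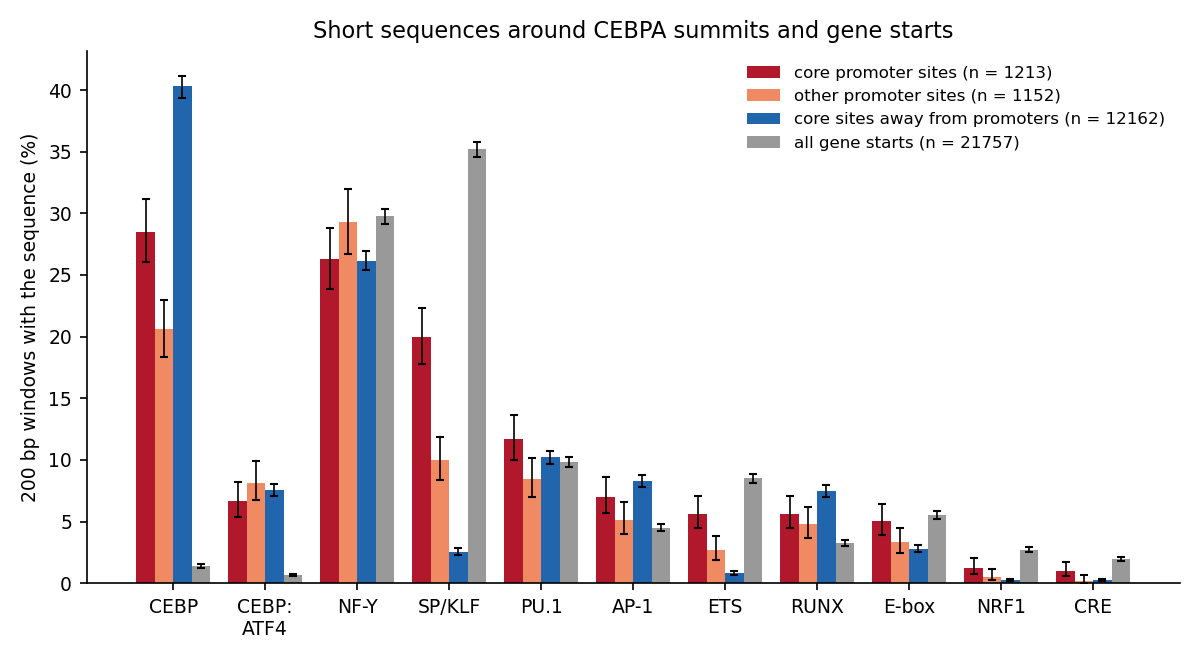
Share of 200 bp windows with each short sequence on either strand (vertical axis, percent) at core promoter sites, other p42 anti-CEBPA promoter sites, core sites away from promoters and all protein-coding gene starts, with Wilson 95% intervals as bars. CEBP stands at 28.5% at core promoter sites and 1.36% at gene starts, and the GC box (SP/KLF) at 20% and 35.2%.

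The composite C/EBP-ATF sequence marked a separate group of members. It was in 81 windows (6.68%), against 0.643% of gene starts, 8.16% of other promoter sites and 7.55% of distal core sites. Only 3 of the 81 also held a CEBP sequence. The composite lay within 25 bp of the summit at 65 sites (80.2%), and 62 sites were in all 4 H3K27ac lists. Among these 81 sites were those of 8 cytosolic aminoacyl-tRNA synthetases, enzymes that load tRNAs with amino acids, namely Aars1, Cars1, Farsb, Iars1, Mars1, Nars1, Sars1 and Yars1. The list of synthetases was drawn up after the members had been seen. In all, 10 of the 20 cytosolic synthetases had a core promoter site (50%, interval 29.9 to 70.1), the other two being Gars1 and Lars1, which lacked the composite. Of 17 mitochondrial synthetases, 2 had a core promoter site, among them Yars2. Over all protein-coding genes the share was 5.89%. A start of 17 of the 20 cytosolic synthetases was in all 4 H3K27ac lists.

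Enrichment at cytosolic synthetase sites was mostly below the medians of the members in p42 cells, and on both sides of the medians in p30 cells. At Iars1, the best-ranked of these sites, 29 bp from the start, enrichment was 22.6 and 12.7 in p42 cells and 30.7 and 30.3 in p30 cells. At Cars1, 42 bp from the start, the values were 8.35 and 6.96, and 7.52 and 17.0. At Mars1 they were 8.64 and 6.0, and 12.2 and 15.4. Other members with the composite acted in amino acid supply, such as the transporters Slc38a2, 8 bp from the start, and Slc1a4, and the one-carbon enzymes Shmt2 and Mthfd1l. The composite was also present at Eif5, Eif1 and Eif2s2, factors of translation initiation, and at Ppp1r15b, which promotes dephosphorylation of eIF2α.

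Most core promoter sites lay in acetylated chromatin in every list. The CEBPA summit was in an H3K27ac peak at 928 sites in untreated p42 cells (76.5%, interval 74.0 to 78.8), 916 in p42 cells with LPS (75.5%, 73.0 to 77.9), 887 in untreated p30 cells (73.1%, 70.6 to 75.5) and 914 in p30 cells with LPS (75.4%, 72.8 to 77.7). Over all 47517 p42 anti-CEBPA sites the shares were 18.9%, 17.6%, 16.3% and 16.7%. The summit was in a peak of all 4 lists at 818 sites (67.4%, 64.7 to 70.0), against 12.7% of all sites, 37.8% of other promoter sites (35.0 to 40.6), 24.3% of distal core sites (23.5 to 25) and 31.4% of gene starts. It was in no list at 220 (18.1%). The 4 intervals of the members overlapped, although the untreated p30 share lay below the interval of the untreated p42 share.

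**Figure D3:**
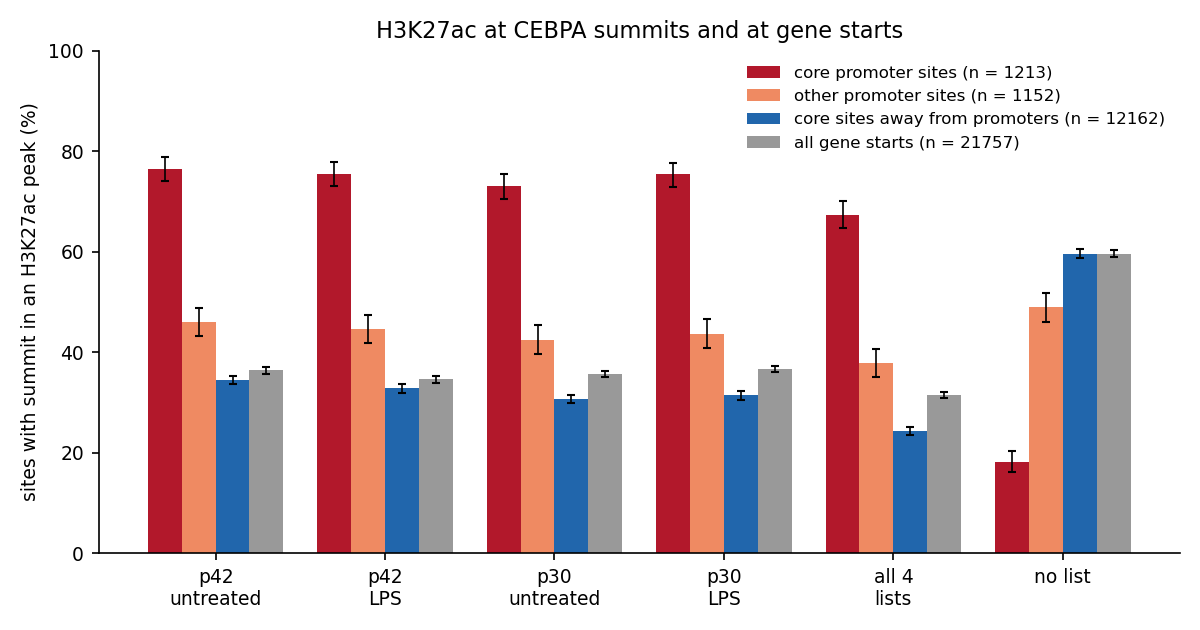
Share of sites whose summit lies in an H3K27ac peak (vertical axis, percent) in each of the 4 lists, in all 4 and in none, for core promoter sites and 3 comparison sets, with Wilson 95% intervals as bars. Core promoter sites stand between 73.1% and 76.5% in every list, above the other sets, and 18.1% are in none.

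The peaks over core promoter sites were among the strongest of their lists, as were those over gene starts in general. Their median percentile was 3.53 in untreated p42 cells, 4.46 in p42 cells with LPS, 3.74 in untreated p30 cells and 3.78 in p30 cells with LPS, and 86.2%, 81.7%, 85.3% and 86.1% of them were in the best 10% of the list. The median percentile at other promoter sites was 4.73, 5.86, 4.15 and 4.05, and at distal core sites 10.1, 12.3, 10.9 and 11.7. At all gene starts in a peak it was 3.92, 4.68, 3.69 and 3.54. Only the value of untreated p42 cells lay outside the interval of the members' median, and there the members ranked better. In the p30 lists the order depended on the starts used. With starts of primary transcripts only, the members' medians were 3.54 untreated and 3.37 with LPS. Peaks over the members were also broad, with a median width of 3273.5 bp in untreated p42 cells and 2928 bp in untreated p30 cells against 2525 and 2434 bp at gene starts and 438 and 441 bp over the lists. The strongest point of the acetylation was set apart from CEBPA, at a median of 387 bp from the CEBPA summit in untreated p42 cells and 389 bp in untreated p30 cells.

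A minority of the summits outside a peak lay between acetylated stretches. Of the 285 members not in a peak in untreated p42 cells, 84 (29.5%) had a peak within 500 bp on both sides, 68 on 1 side and 133 on neither. In untreated p30 cells the counts were 71 (21.8%), 86 and 169 of 326. Counting any peak within 500 bp, 89% of members were acetylated in untreated p42 cells and 86.1% in untreated p30 cells, and 121 (9.98%) had no such peak in any list. At Cotl1, an actin-binding protein, the peak over the summit ranked 7951 in untreated p42 cells and 7791 in p30 cells with LPS, while in the other two lists the summit was outside a peak that lay within 500 bp.

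The 121 sites without acetylation nearby were bound on sequences rich in CEBP. A CEBP sequence was in 56 of them (46.3%, 37.6 to 55.1), against 28.5% of all members, and their median GC content was 42%. The strongest, upstream of 4933416I08Rik at -898 bp, had enrichments of 76.1 and 76.5 in p42 cells and 48.3 and 80.9 in p30 cells. The next was the site 758 bp upstream of Upf2 shown above. They were followed by sites at -682 bp from the start of Tnc, the matrix glycoprotein tenascin C, 522 bp downstream of the start of Nnat, an imprinted gene of neural tissue, and at -456 bp from that of Frmpd1. Members with a CEBP sequence were in an H3K27ac peak less often than those without, at 69.7% against 79.2% in untreated p42 cells and 64.7% against 76.5% in untreated p30 cells. The windows with less GC were also less often acetylated, at 66.7% of those under 50% GC in untreated p42 cells against 83.6% of those with 60% or more, and the part of base composition in this difference was not tested.

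H3K4me1 was seldom at the summit itself. In untreated p42 cells 131 members (10.8%) had the summit in an H3K4me1 peak and in untreated p30 cells 233 (19.2%). At gene starts the shares were 2.83% and 4.27%. At other promoter sites they were 11.2% and 14.1%, and at distal core sites 16.1% and 24.2%. A further 387 members (31.9%) in p42 cells and 350 (28.9%) in p30 cells had a peak within 500 bp but not at the summit. With distance from the start the share at the summit was higher, at 6.17% within 50 bp and 15.4% beyond 500 bp in p42 cells, and at 8.37% and 27.8% in p30 cells. The p30 list was the longer one, with 168035 peaks against 134658.

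The presence of H3K27ac differed with LPS at few members, and mostly where a peak lay nearby in both conditions. A summit was in a peak with LPS but not untreated at 36 sites in p42 cells (2.97%, 2.15 to 4.08) and 61 in p30 cells (5.03%, 3.93 to 6.41), against 1.72% and 2.42% of all p42 anti-CEBPA sites. The shares were nearer to those of other promoter sites, 2.69% (1.90 to 3.79) and 3.65% (2.71 to 4.89), and of distal core sites, 2.96% (2.67 to 3.28) and 3.99% (3.65 to 4.35). The summit was in a peak untreated but not with LPS at 48 (3.96%) and 34 (2.8%). These shares were near the 4.08% and 2.52% of other promoter sites and the 4.64% and 3.31% of distal core sites. However, 35 of the 36 sites gained in p42 cells and 59 of the 61 in p30 cells already had a peak within 500 bp untreated. The same was true of all 48 lost in p42 cells and 32 of the 34 lost in p30 cells. Read within 500 bp, 5 members gained and 9 lost acetylation in p42 cells, and 19 gained and 6 lost it in p30 cells. Gains and losses within 500 bp were not counted at other sites.

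Il1b, the gene of the inflammatory cytokine interleukin-1β, was the only member that gained H3K27ac within 500 bp in both lines. Its core site lay 83 bp upstream of the start, with fold enrichments of CEBPA between 6.76 and 8.85. No H3K27ac peak was within 500 bp of it in untreated cells of either line. With LPS a peak ranked 45928 in p42 cells, at a percentile of 42.9 and a fold enrichment of 3.99, and a peak ranked 120694 in p30 cells, at a percentile of 84.7 and a fold enrichment of 2.48. Both were therefore weak peaks of their lists. Il1rn, which encodes the interleukin-1 receptor antagonist, and Ptges, a prostaglandin E synthase, gained acetylation within 500 bp in p30 cells, where both had a peak in p42 cells in either condition. The Ptges peak ranked 61851 untreated and 17764 with LPS in p42 cells, and 26478 with LPS in p30 cells. The gain at Misfa in p42 cells, at a percentile of 97.1, was close to the floor of the list.

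At the summit itself 10 sites gained H3K27ac in both lines and 9 lost it in both. The best-bound gains were at Stx6, a SNARE of vesicle traffic, Nlrp3, the sensor of the inflammasome, Slc15a3, a peptide and histidine transporter of lysosomes, Tspan13 and Slc1a4, a neutral amino acid transporter. At Nlrp3, 779 bp downstream of a start, the peak with LPS ranked 7729 in p42 cells and 11754 in p30 cells. At Slc15a3, 638 bp upstream, it ranked 1487 and 3915. A second core site of Nlrp3, 64 bp upstream of another start and with the composite sequence, was in a peak in 3 lists, and the LPS peaks at both sites were the same ones. Losses in both lines included Psmb3, Aldh8a1, Cnn3, Arhgef1 and Eif5, whose untreated peaks ranked 11225, 17722, 62217, 3292 and 148 in p42 cells. A further 26 sites gained it in p42 cells but not in p30 cells, and 51 in p30 cells but not in p42 cells. The other line often had a peak already. Of the 26, 12 were in a p30 peak in both conditions. Of the 51, 29 were in a p42 peak in both conditions. The first group included Ppm1f, Ip6k3, Atp6v0a1, a subunit of the proton pump of lysosomes, Prxl2c and Zfp568. Their LPS peaks in p42 cells had ranks between 4219 and 24782. Ppm1f and Ip6k3 were in a p30 peak in both conditions. The second group included Rab11b, Cotl1, Akr1b1, an aldose reductase, and Nfe2, a basic leucine zipper factor of megakaryocytes and erythroid cells. Rab11b and Cotl1 were in a peak in untreated p42 cells and outside one in p42 cells with LPS. At Nfe2, 14 bp from the start, the LPS peak in p30 cells ranked 4426. This peak was 8290 bp wide, with its strongest point 3256 bp from the CEBPA summit. It also covered a second core site of Nfe2, 157 bp upstream of a start. That second site was already in a peak in untreated p30 cells, at rank 2925. A second core site of Eif5, 338 bp downstream of a start, was in a peak of all 4 lists.

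Where a peak covered the summit in both conditions, its percentile moved little. In p42 cells the LPS minus untreated difference had a median of 0.617 over 880 sites, a slightly weaker rank with LPS, and the rank was better with LPS at 222 of them (25.2%). In p30 cells the median was -0.0324 over 853 sites and the rank was better at 454 (53.2%). Of 818 sites in all 4 lists, 2 moved to a better percentile by more than 5 points in both lines, Bmf, a BH3-only protein that promotes apoptosis, and Gpt2, an alanine transaminase. At Bmf the rank went from 48101 to 29361 in p42 cells and from 33630 to 12861 in p30 cells. The reverse was seen at Usp48, Rpgrip1l, Nin and Sgms1. The list with LPS was the shorter one in p42 cells and slightly the longer one in p30 cells, which moves percentiles with it.

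**Figure D4:**
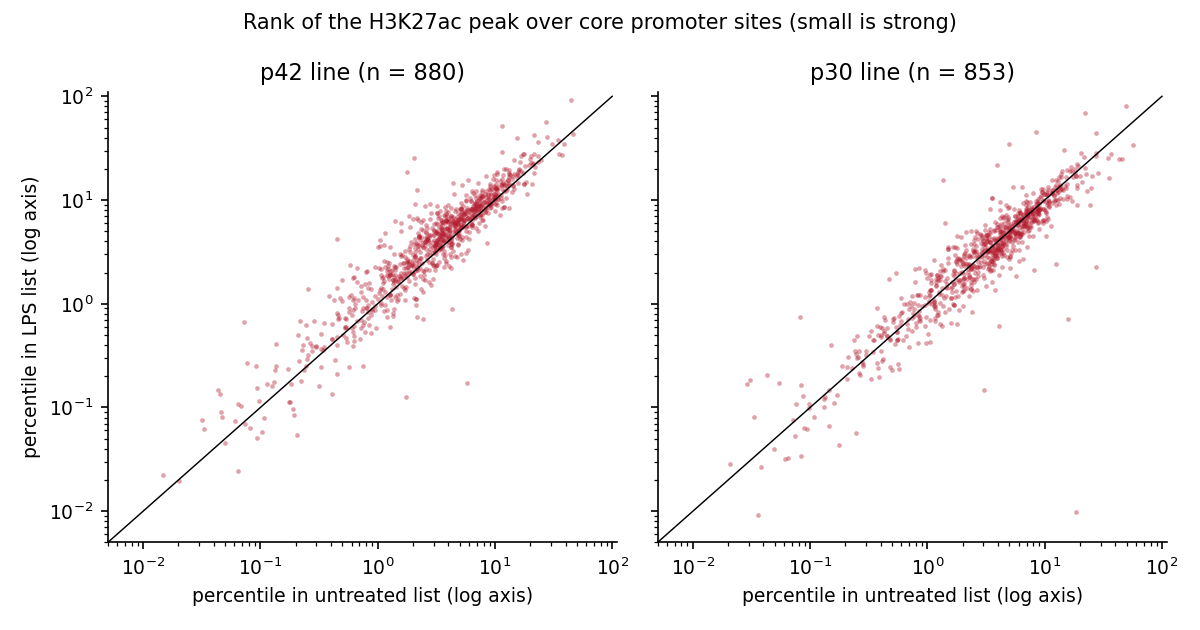
Percentile of the H3K27ac peak over each core promoter site in the untreated list (horizontal axis) and the LPS list (vertical axis), both on log axes where small is strong, for p42 (left, 880 sites) and p30 cells (right, 853 sites). Points follow the diagonal, with a slight lift above it in p42 cells, where 25.2% of sites ranked better with LPS.

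Few members differed between the lines at the summit in both conditions. H3K27ac was at the summit in p42 cells but not p30 cells, with and without LPS, at 18 sites, and the reverse held at 8. The first group held Il1rn, whose peaks ranked 28353 and 22103 in p42 cells, Gtdc1, Gabbr1, a GABA receptor subunit, Slc38a7, a glutamine transporter of lysosomes, and Mocos. The second held Rpia, an enzyme of the pentose phosphate pathway, Eri3, Taf2, a subunit of TFIID, Dpep2 and Pde6h. At Rpia, 7 bp from the start, the peak ranked 6156 untreated and 6349 with LPS. In untreated cells 71 summits were in a p42 peak only (5.85%) and 30 in a p30 peak only (2.47%). These shares were near those of other promoter sites, 5.56% and 2.08%, and of distal core sites, 6.76% and 2.97%. The 18 and 8 sites that differed in both conditions were not counted in the other sets, and peaks within 500 bp of them were not counted. Il1rn had such a nearby peak in p30 cells with LPS, at rank 41755.

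Genes with a core promoter site numbered 1281 of 21757 protein-coding genes, or 5.89%. Several groups of hematopoietic and stress genes had a larger share, and most of their genes had an acetylated start. A start was in all 4 H3K27ac lists at 26 of 35 myeloid and progenitor factors and 15 of 22 receptors. The same held at 27 of 40 inflammatory genes and 19 of 31 stress genes. Over all genes, the gene start was in all 4 lists at 31.4%. Shares with a core promoter site among acetylated genes alone were not counted. Of 35 myeloid and progenitor transcription factors, 8 had a site (22.9%, 12.1 to 39), Spi1, Tal1, Stat3, Meis1, Id1, Cebpg, Runx1 and Erg. All 8 sites were in a peak of all 4 H3K27ac lists. Spi1 encodes PU.1, and its site 684 bp downstream of the start had enrichments of 21.1 and 43.4 in p42 cells and 32.6 and 74.6 in p30 cells. The H3K27ac peak over it ranked 769 in untreated p42 cells and 1305 with LPS, and 1817 and 2635 in p30 cells. At Tal1, an early hematopoietic factor, the site lay 269 bp downstream of the start on a CEBP sequence. Cebpg, a C/EBP protein without an activation domain of its own, had a site 700 bp upstream.

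Among 22 cytokine and growth factor receptors, 7 had a site (31.8%, 16.4 to 52.7). These were Il6ra, Ifngr2, Csf3r, Il1r1, Csf2rb, Tnfrsf1a and Il3ra. The site of Csf3r, the G-CSF receptor, lay 130 bp downstream of the start, with enrichments of 12 and 11.7 in p42 cells and 16.3 and 17.1 in p30 cells. Csf2rb is the common β chain of the GM-CSF, interleukin-3 and interleukin-5 receptors, and its site was 15 bp from the start. The peak of acetylation at Ifngr2, a chain of the interferon-γ receptor, was strong in every list, at ranks 314, 267, 182 and 145. At Il1r1 the summit was in a peak in untreated p30 cells alone. None of the 7 sites held one of the 4 CEBP sequences, which 28.5% of all members held. The looser TTGCNNAA was at Csf2rb, Il3ra, Il1r1 and Ifngr2, against 53.5% of all members.

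Of 40 inflammatory cytokine and NF-κB pathway genes, 9 had a site (22.5%, 12.3 to 37.5), Tank, Ptgs2, Nfkbiz, Nfkbia, Ccl3, Myd88, Tnfaip2, Ier3 and Il1b. A CEBP sequence was at 5 of the 9 sites, against 28.5% of all members. Enrichment at Tank, an adaptor of TRAF signalling, was 35.5 and 48.2 in p42 cells and 29.1 and 66.4 in p30 cells. Ptgs2, which encodes cyclooxygenase-2, had a site 225 bp downstream of the start with 32.7 and 14.7, and 27.5 and 28.6. Nfkbia encodes the NF-κB inhibitor IκBα. Its peak of acetylation ranked 4965 untreated and 7847 with LPS in p42 cells, and 6968 and 5923 in p30 cells, with no common direction. At Myd88, the adaptor of Toll-like receptors, ranks were 5859 and 3118 in p42 cells and 6082 and 3244 in p30 cells, better with LPS in both. All but Il1b of the 9 were in a peak of all 4 lists.

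In the stress response list, 9 of 31 genes had a site (29%, 16.1 to 46.6), Herpud1, Ddit3, Trib1, Hmox1, Ppp1r15b, Atf4, Trib3, Slc3a2 and Cdkn1a. The composite sequence was at 3 of them, Herpud1, Ddit3 and Ppp1r15b, against 6.68% of all members. Atf4 itself had a site 325 bp downstream of a start on a CEBP sequence, with enrichments of 10.2 and 14.2 in p42 cells and 6.98 and 30.3 in p30 cells. Hmox1, heme oxygenase, had a site 68 bp upstream whose summit was in no H3K27ac peak, although a start of the gene was in one. Trib1 is a Tribbles protein that targets C/EBPα for degradation, and its site lay 237 bp downstream of the start. At Ddit3 the summit was in a peak in 3 lists, at rank 716 in untreated p42 cells and 758 and 2847 in p30 cells, and outside one in p42 cells with LPS.

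Of 18 AP-1 family genes, 4 had a site (22.2%, 9 to 45.2), namely Mafg, Maff, Atf7 and Fosb. All were in a peak of all 4 lists. At Fosb, 99 bp upstream of the start, enrichment was low, at 9.74 and 5.28 in p42 cells and 6.87 and 9.46 in p30 cells. Of 34 cell cycle and replication genes, 5 had a site (14.7%, 6.45 to 30.1), Cdk4, Mcm3, E2f8, Ccnd3 and Cdkn1b. A start of 29 of the 34 was in all 4 H3K27ac lists. The summit at Mcm3, a subunit of the replicative helicase, was in no H3K27ac peak, although a start of the gene was in one.

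Other groups had a share at or below that of all genes. Granule and effector genes of neutrophils had a site at 1 of 25 (4%), Mpo, which encodes myeloperoxidase. It lay 57 bp upstream of the start with enrichments between 5.76 and 9.12 and none of the sequences searched. Its peak of acetylation ranked 2134 and 2670 in p42 cells, and 5850 and 4714 in p30 cells. Cytosolic ribosomal protein genes had a site at 3 of 85 (3.53%), Rpl10a, Rpl39 and Rpl12, although 73 of the 85 had a start in all 4 H3K27ac lists. Mitochondrial ribosomal protein genes had one at 3 of 77 (3.9%).

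Histone genes, mostly replication-dependent, had a site at 5 of 73 (6.85%), through 4 sites, one of which lay between H2bc9 and H3c7. All 4 sites had a better percentile of acetylation with LPS in both lines, against 156 of the 818 members in all 4 lists (19.1%). At H2bc3 the rank went from 2729 to 1195 in p42 cells and from 1604 to 964 in p30 cells. At H4c14, which held the composite sequence, it went from 4985 to 2624 and from 3736 to 2907. Of the 8 cytosolic synthetase sites in all 4 lists, 4 had a better percentile in both lines. Lars1 moved from rank 11127 to 4090 in p42 cells and from 10202 to 7745 in p30 cells. Histone genes lie in clusters with closely similar sequences, so that reads may be shared between copies.

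**Figure D5:**
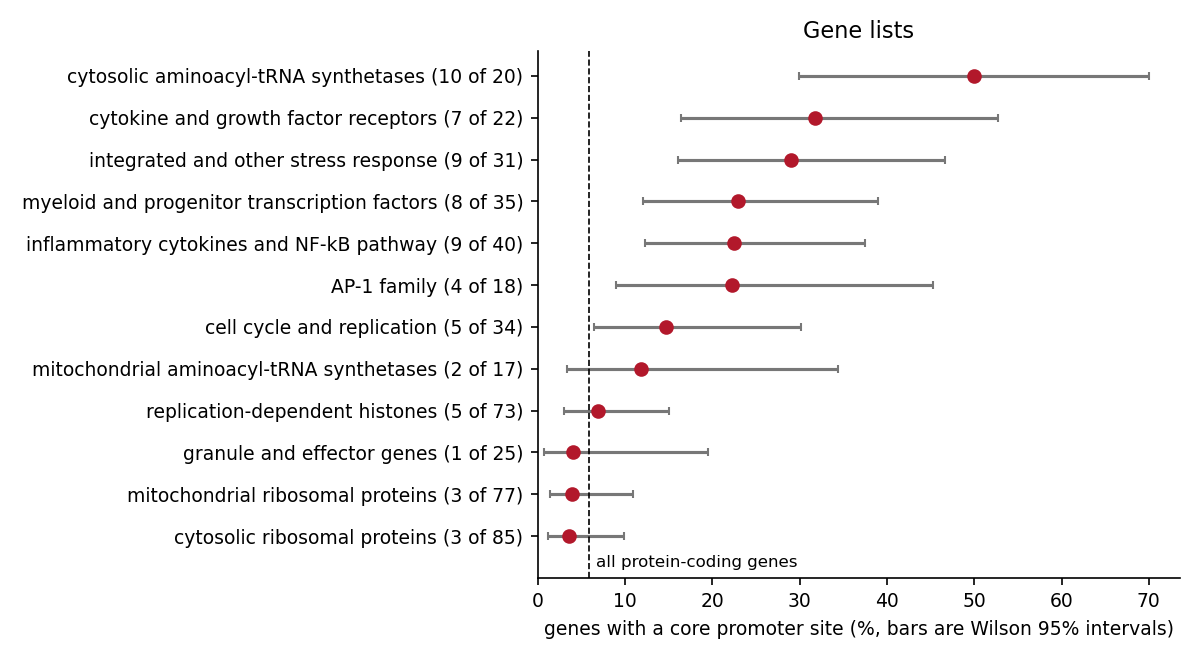
Share of genes of each list with a core promoter site (horizontal axis, percent, with Wilson 95% intervals as bars); counts stand beside each list, and the dashed line is the share over all protein-coding genes (5.89%). Cytosolic aminoacyl-tRNA synthetases stand at 50% and cytosolic ribosomal proteins at 3.53%.

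Counted by gene symbol, 1230 genes had 1 core promoter site and 46 had 2. Ang and Rnase4, which share a promoter region, had 3, and Adcy7, an adenylyl cyclase, 2. At Adcy7 the site 98 bp upstream of a start was in a peak in p30 cells at ranks 16565 and 16032 and in none in p42 cells. Its second site, 447 bp upstream, was in a peak of all 4 lists, at ranks 2770 and 1186 in p42 cells and 2118 and 1279 in p30 cells. The strongest members also included Fbp2, a fructose-bisphosphatase, and Cdkl4, a kinase. At Fbp2, 629 bp upstream of the start, enrichment was 66.8 and 57.8 in p42 cells and 71.7 and 107 in p30 cells. At Cdkl4, 7 bp from the start, it was 28.6 and 33.6, and 74.4 and 73.7.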

How the data were processed

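Peak lists from ChIP-seq of HPC-7 cells were used, 4 of CEBPA, 4 of H3K27ac and 2 of H3K4me1. The labels and the study name Trim Galore 0.6.6, alignment to mm39 with Bowtie2, removal of duplicates with Picard, and MACS2 with input as control. Histone lists were called on pooled replicates, CEBPA lists on 1 library each. File labels show a call without a model for all lists but those of anti-CEBPA. The lists deposited by the authors hold for each peak a ratio (fold enrichment over local background at the summit). The authors also deposited the −log10 of the p-value and of the q-value. All were compared within their own list only. Human samples were not used.

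Peaks on chromosomes 1 to 19, X and Y were kept, and none ran past a chromosome end of GRCm39. Starts were the 5′ ends of protein-coding transcripts (GENCODE M39, 67388 starts). Rank was by −log10 q, then −log10 p, then fold. Short sequences were searched on both strands in 200 bp around each summit. Sequences are printed for sites outside untranslated regions and on part of the chromosomes. Members, gene lists and sequences were chosen with earlier results of these data known, and the synthetase lists and the C/EBP-ATF group were added after the members were seen. Named were the 10 best sites by mean CEBPA percentile, up to 6 genes of a list, the 5 best of each H3K27ac class, sites at the distance limit and the 3 genes with most sites. Remaining names, such as other list genes, genes with the composite sequence, Il1rn, Ptges and Misfa, were chosen after their values were seen. Sites of some genes that the rule names are not reported here. Planted overlaps and sequences in simulated lists were recovered. Alternatives concerned overlap, thresholds, list lengths, starts, distance and windows. Python 3.11.15 with numpy 2.4.6, pandas 2.3.3, pysam 0.24.0 and matplotlib 3.10.9 was used.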

Additional observations from a re-analysis of the deposited data

Results flagged for a closer look

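With the lists as deposited, the change with LPS had opposite signs in the lines, and the difference between them was not tested, since each list pools its replicates. The share of core promoter sites in an H3K27ac peak changed by -0.989 percentage points in p42 cells and by 2.23 in p30 cells. Over all p42 anti-CEBPA sites the changes were -1.29 and 0.404. The median change of percentile at sites covered in both conditions was 0.617 in p42 cells and -0.0324 in p30 cells, where below 0 is a better rank with LPS. The lists changed in length in the same directions, from 129369 to 107141 peaks in p42 cells and from 139210 to 142419 in p30 cells. With the same number of peaks taken from each list, the shares were 76.5% and 75.5% in p42 cells, and 73% and 75.2% in p30 cells, so their order was kept. The median percentiles of the covering peaks then were 4.26 untreated and 4.46 with LPS in p42 cells, and 4.86 and 5.01 in p30 cells, a weaker rank with LPS in both lines, so the opposite signs of the percentiles were not seen at equal list length.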

How the results depend on the processing

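No paired analysis was possible because the lists pool their replicates or hold 1 library, and leaving out replicates could not be done for the same reason. Taking p30 anti-CEBPA sites as the base gave 1218 members, 1209 of which overlapped a member, and moved no result beyond its interval. With 50% reciprocal overlap, CEBPA q-values under 1e-05, or gene starts only, the number of members was 1029, 1124 and 818, and only the share of genes moved, to 5.03%, 5.5% and 4.08%. The same number of CEBPA peaks per list gave 819 members, of which 72.2%, 71.7%, 68.6% and 71.8% were in H3K27ac (p42 untreated, p42 LPS, p30 untreated, p30 LPS), 63% in all 4 lists and 34.2% held CEBP, with 4.06% of genes. Within 250 bp there were 606 members, and values moved to 79.7% (p42 untreated), 76.4% (p30 untreated), 78.7% (p30 LPS), 70.3% (all 4) and 2.93% of genes. Starts of primary transcripts only, chosen after seeing the data, gave 903 members, 70.1% in all 4 lists, 4.48% of genes and a median p30 LPS percentile of 3.37. Counting H3K27ac within 500 bp gave 89%, 88.7%, 86.1% and 87.1%, 85.3% in all 4, and lowered the gains with LPS to 0.412% in p42 and 1.57% in p30 cells, with a median percentile of 4.14 in untreated p30 cells. H3K27ac q-values under 1e-05 gave medians of 5.9, 7.15, 6.6 and 6.5, and equal lengths of the H3K27ac lists 4.26, 4.86 and 5.01 (p42 untreated, p30 untreated, p30 LPS), since shorter lists give larger percentiles. CEBP windows of 100 and 400 bp left the share within its interval. Depth limits which weak peaks were called, and it is not known from the lists.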
